A study of Mus musculus with 24 samples.

Results

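The levels of 10 genes of the basal layer of the mammary gland were followed in 24 arrays of mouse mammary tissue. The 10 genes were chosen by name from the 34797 gene names on the array and fall into 2 classes. Krt5, Krt14, Krt15, Krt17, Trp63 and Oxtr are genes of the basal epithelium (6 genes), and Acta2, Myh11, Cnn1 and Tagln are genes of the contractile apparatus that vessel walls use as well (4 genes). Every array probe annotated with one of these gene names was taken, which gave 14 of the 55681 probes on the array. The arrays came from female mice of 2 inbred strains, BALB/c and SPRET/EiJ, given a single whole-body X-ray dose of 10 cGy (low-dose ionizing radiation, LDIR) or a sham exposure at 8-9 weeks of age. BALB/c glands were collected 2 weeks, 4 weeks or 8 weeks later, and SPRET/EiJ glands 4 weeks later. This made 8 groups of 3 mice, with the letters A, B and C naming the mice of a group. RNA came from the homogenized gland, so every cell type of the tissue entered each array.

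The mammary duct has an inner luminal layer that makes milk and an outer basal layer of myoepithelial cells that contract around it. Myoepithelial cells carry keratins of stratified epithelium together with a smooth muscle type of actin and myosin, and they shorten when the hormone oxytocin reaches them during suckling. Smooth muscle cells of arteries and veins hold the same contractile proteins but no keratins, so the contractile genes alone do not mark the epithelium. Krt5 and Krt14 encode the paired keratins of basal cells, Krt15 and Krt17 encode keratins of basal cells and of hair follicles, Trp63 encodes the transcription factor p63 that maintains basal identity, and Oxtr encodes the oxytocin receptor. Acta2 encodes smooth muscle alpha-actin, Myh11 the smooth muscle myosin heavy chain, Cnn1 calponin and Tagln transgelin, both of which bind actin filaments.

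A level is given as the log2 of the probe's signal minus the 75th percentile of its array, so that 0 is the 75th percentile and 1 unit doubles the signal. Each gene is represented by its brightest probe over the 24 arrays, and the other probes of Krt5 (2 probes) and Trp63 (4 probes) are given beside it in some comparisons. All 10 of these probes exceeded background clearly on each of the 24 arrays. Levels of different probes depend on the probe and were not set against each other. The sequences of 3 of the 60-base probes are shown. The probes of Krt14 and Krt15 are shown as examples of the keratin probes, and the brightest Trp63 probe holds a repeat of CAG, given in capitals, that no other Trp63 probe holds.
Krt14: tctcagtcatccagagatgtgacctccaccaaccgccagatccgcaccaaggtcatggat
Krt15: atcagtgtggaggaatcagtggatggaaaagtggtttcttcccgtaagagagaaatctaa
Trp63: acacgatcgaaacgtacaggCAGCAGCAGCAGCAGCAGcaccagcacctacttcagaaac
In the mm9 build used by the array files, the Krt14 probe lies on the minus strand at chr11:100064683-100065288, a span longer than the probe, so its bases are not contiguous in the genome. The Krt15 probe lies on the minus strand at chr11:99993331-99993390. The Trp63 probe lies on the plus strand at chr16:25871159-25871218. Which exon each probe lies in was not derived here, and probes of the other members are named only.

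A CAG run of at least 15 bases, read on either strand, occurred in 11 of the 55681 probes, and the brightest Trp63 probe was one of these. Its deviations from the group means ran against those of the second Trp63 probe over the 24 arrays (Pearson r = -0.59, a description with no test). With the 10 other probes holding the run, r lay between -0.69 and 0.96 (median 0.32). The median r was -0.059 over the 29337 probes above background on all 24 arrays. The second Trp63 probe, which lies on the plus strand at chr16:25892012-25892071, is therefore given beside the brightest in many of the comparisons, though not in all.

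Precision is bounded by having 3 arrays a group. An array had from 57.2% to 72.7% of its probes clearly above background. Of the 24 arrays, 3 stood apart on a list of 11 leukocyte genes. The mean level of that list was 3.64 on 8-week BALB/c sham A, 4.01 on 8-week BALB/c LDIR B and 3.35 on SPRET/EiJ LDIR A, against -1.11 to 0.04 on the other 21 arrays. All 11 leukocyte genes were above background on these 3 arrays, and between 8 and 11 on the rest. A list of 10 adipocyte genes was lower on the same 3 arrays (5.49 to 6.02) than on the other 21 (6.69 to 7.61). A list of 12 skeletal muscle genes ranged from -3.86 to 4.15 across the arrays. A list of 15 luminal genes ranged from 1.63 to 3.02 in BALB/c and from -0.25 to 1.85 in SPRET/EiJ. A list of 16 epidermal genes stayed between -4.78 and -2.89, with 7 to 12 of the 16 above background. Because tissue was measured in bulk, fewer cells of a type and less RNA per cell cannot be told apart. The 24 arrays lay on 3 slides of 8, and all 6 SPRET/EiJ arrays shared a slide with 8-week LDIR B and C.

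**Figure D1:**
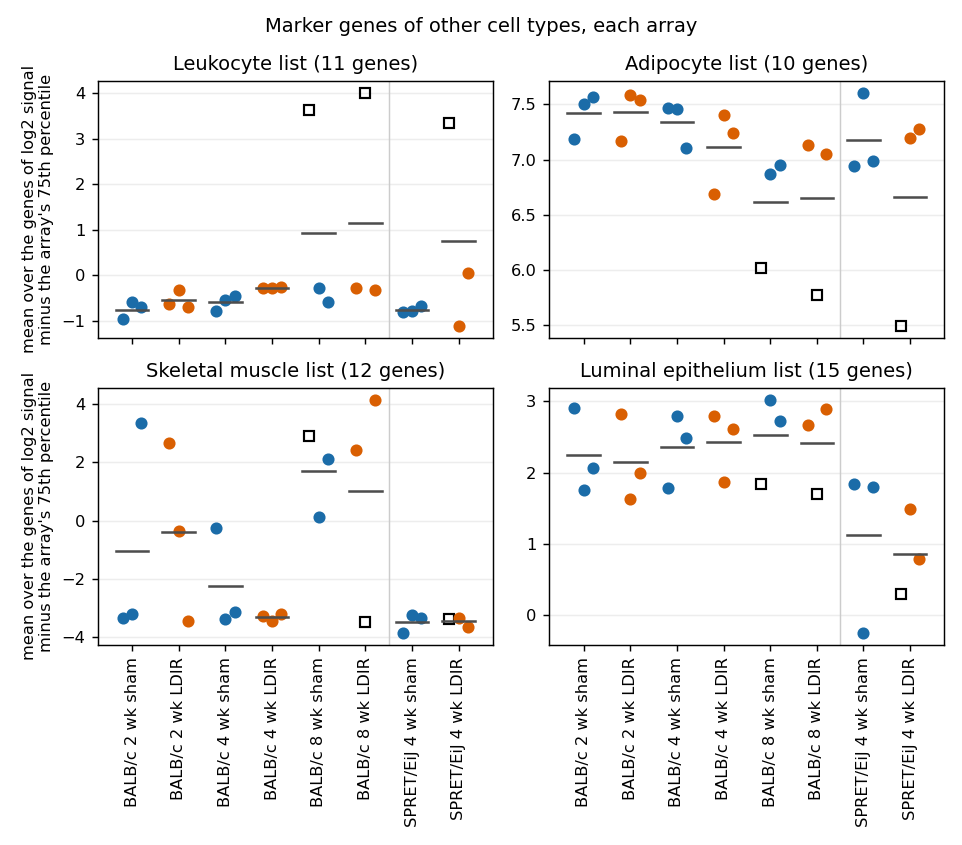
Mean log2 level of 4 lists of marker genes on each array, by group (blue, sham; orange, LDIR; bar, group mean of 3 arrays). The 3 arrays drawn as open squares are those whose leukocyte list lay at 3.35 or higher, and their adipocyte list lay at 6.02 or lower.

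The 8-week BALB/c glands held the highest levels of most members. By group mean, 8-week LDIR was the highest group for Krt5, Krt14, Krt17, Acta2, Myh11, Cnn1 and Tagln, and 8-week sham was the highest for Krt15. Oxtr was highest in SPRET/EiJ sham, and the brightest Trp63 probe was highest in SPRET/EiJ LDIR. The second Trp63 probe ran the other way, with its highest mean in 8-week LDIR (0.99) and its lowest in SPRET/EiJ LDIR (-0.77). When the 8 group means of a member were put in order, there were 7 steps between neighbours, and few of them exceeded the larger SD of the neighbours. This number was 2 of 7 for Krt15, 1 of 7 each for Krt5, Krt14, Krt17, Acta2 and Tagln, and 0 of 7 for Trp63, Oxtr, Myh11 and Cnn1.

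The spread inside the 8-week groups was wide and followed the leukocyte-high arrays. For Krt14 the 8-week sham arrays read 0.45 (A), 2.81 (B) and 2.40 (C), and the 8-week LDIR arrays read 2.59 (A), 1.29 (B) and 2.75 (C). The array with the high leukocyte list was the lowest in each group. This was so for 9 of 10 members on 8-week sham A and for 9 of 10 on 8-week LDIR B. The exception on both was the brightest Trp63 probe, while the second Trp63 probe was the lowest of its group there (-0.851 on sham A and 0.135 on LDIR B). The median member lay 2.23 below the mean of the other 2 arrays of its group on sham A and 1.54 below it on LDIR B. On SPRET/EiJ LDIR A, 6 of 10 members were the lowest of their group and 2 the highest, and the second Trp63 probe was the lowest (-1.18). The part of other cell types in these low levels was not tested.

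**Figure D2:**
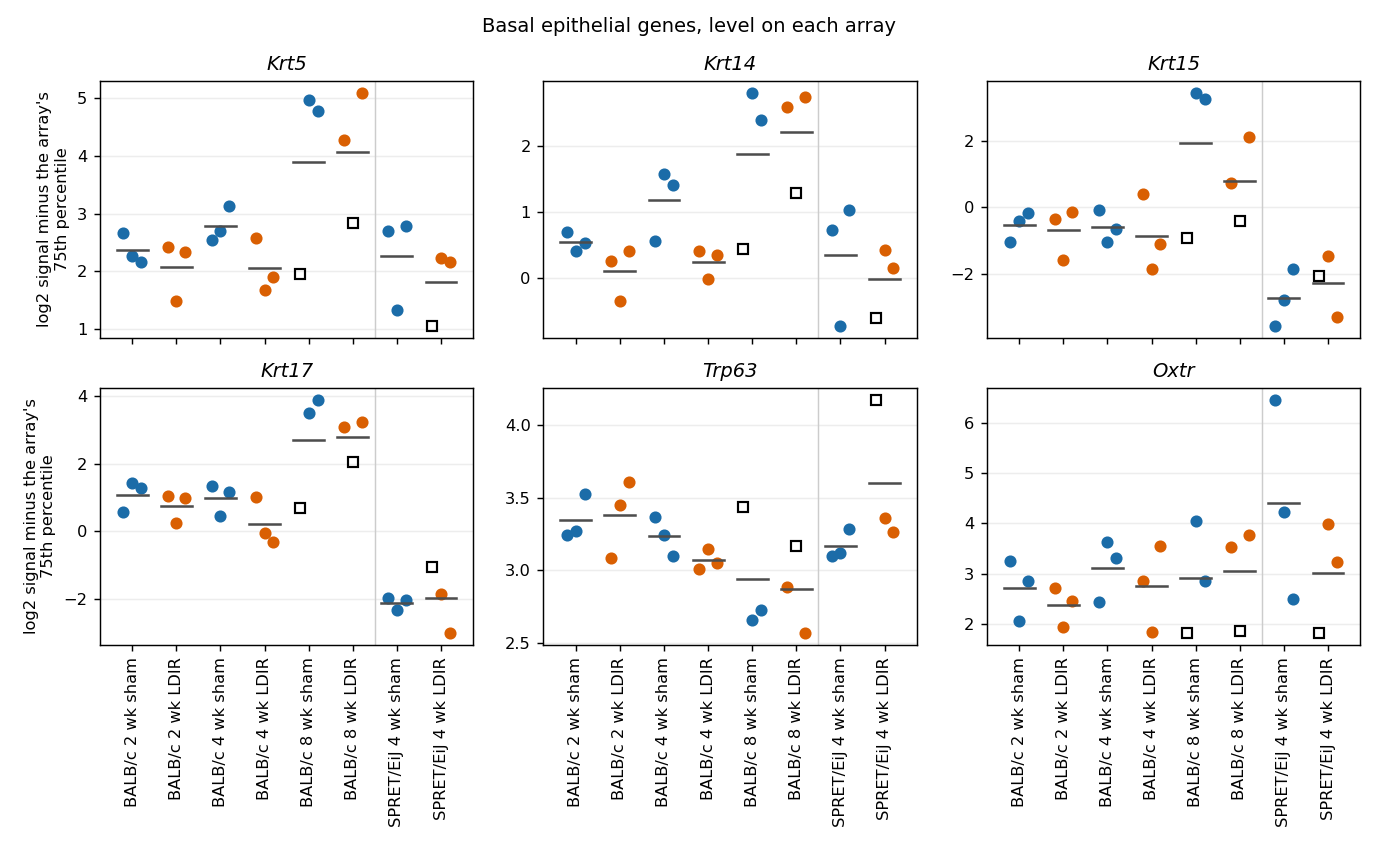
Level of the 6 basal epithelial genes on each of the 24 arrays, by group, as log2 signal minus the array's 75th percentile (blue, sham; orange, LDIR; bar, group mean; open squares, the 3 arrays of high leukocyte level). Krt5, Krt14, Krt15 and Krt17 are highest on the 8-week arrays drawn as filled points, and Krt15 and Krt17 are lowest in SPRET/EiJ. The brightest Trp63 probe, the only one drawn, shows neither pattern.

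The strain comparison asked how far the unirradiated glands of BALB/c and SPRET/EiJ differ. Acta2 and Krt17 were higher in BALB/c sham than in SPRET/EiJ sham at 4 weeks, and they were the 2 of 10 members past the study's strain thresholds (p under 0.001 and more than 1.5-fold). Over all probes 8.89% passed the same thresholds. Acta2 read 4.32, 4.10 and 4.59 on the BALB/c sham arrays and 0.60, 0.26 and 1.12 on the SPRET/EiJ sham arrays. The groups lay far apart, with a log2 difference of 3.68 (SE 0.27; 12.8-fold; adjusted p = 4.87e-04, limma). Krt17 read 1.34, 0.46 and 1.17 in BALB/c and -1.97, -2.33 and -2.05 in SPRET/EiJ. Its groups did not overlap either, with a log2 difference of 3.11 (SE 0.27; 8.61-fold; adjusted p = 9.29e-04, limma).

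Krt15 pointed the same way without passing the strain threshold on p. It read -0.06, -1.04 and -0.66 in BALB/c and -3.58, -2.78 and -1.86 in SPRET/EiJ, without overlap, and the log2 difference was 2.15 (SE 0.48; 4.45-fold; adjusted p = 0.0257). For the keratin pair that defines basal cells neither value passed. The log2 difference was 0.52 for Krt5 (SE 0.43; adjusted p = 0.473) and 0.84 for Krt14 (SE 0.52; adjusted p = 0.333), with overlapping groups for both. Oxtr had a difference of -1.28 (SE 0.97; adjusted p = 0.429), and its SPRET/EiJ arrays spread from 2.50 to 6.47. Thus 3 of 10 members had an adjusted p under 0.05 against 18.8% of all probes, and 4 of 10 had groups that did not overlap against 38% of all probes. Neither share of so few genes sets the members apart from the array as a whole.

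The contractile genes other than Acta2 did not share its difference. Tagln read 4.92, 4.97 and 5.43 in BALB/c sham and 5.91, 5.66 and 5.92 in SPRET/EiJ sham, so that it was higher in SPRET/EiJ without overlap, with a log2 difference of -0.72 (SE 0.20; adjusted p = 0.0562). The differences were -0.57 for Cnn1 (SE 0.39; adjusted p = 0.380) and -0.32 for Myh11 (SE 0.53; adjusted p = 0.719). Acta2 is read by a single probe, spotted 10 times on each array. SPRET/EiJ derives from Mus spretus, a species apart from the laboratory mouse whose genome the probes are placed on, so a base change under a probe and a lower RNA level cannot be told apart here for Acta2, Krt17 or Krt15. Slide cannot be told apart from strain within these 6 arrays either, and in a fit of all 24 arrays with slide as a term 0 of 10 members passed, with Acta2 at 3.20 (adjusted p = 0.166, limma) and Krt17 at 2.85 (adjusted p = 0.363, limma).

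The probes of Trp63 gave unlike strain differences. The brightest gave 0.07 (SE 0.16; adjusted p = 0.797), the second probe 0.94 (SE 0.64; adjusted p = 0.380) and the third 1.74 (SE 0.34; adjusted p = 0.0174). The fourth and dimmest probe was above background on all 3 BALB/c sham arrays and on 0 of 3 SPRET/EiJ sham arrays, so its BALB/c signal was higher by at least 2.06-fold (limma, adjusted p = 0.0430). No single strain value can be given for Trp63.

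The irradiated mice of the same age gave a second set of animals for the strain comparison. Their BALB/c arrays all lay on the second slide and their SPRET/EiJ arrays on the third, so slide and strain cannot be told apart here either. A base change under a probe would recur in these mice as well. Acta2 read 4.52, 4.09 and 3.74 in BALB/c LDIR and 0.00, 0.91 and 0.40 in SPRET/EiJ LDIR, a log2 difference of 3.68 (SE 0.33; adjusted p = 0.00163), close in size to that of the sham mice. It was the 1 of 10 members past the thresholds, which 5.67% of all probes passed. Krt17 read 1.00, -0.06 and -0.31 in BALB/c LDIR and -1.06, -1.85 and -3.02 in SPRET/EiJ LDIR, a log2 difference of 2.19 (SE 0.57; adjusted p = 0.0587). Tagln was again higher in SPRET/EiJ without overlap (-0.57, SE 0.23, adjusted p = 0.175), and so was the brightest Trp63 probe (-0.53, SE 0.30, adjusted p = 0.335). With these, 4 of 10 members did not overlap between strains, against 33.5% of all probes. The second Trp63 probe differed in the other direction, by 0.88 (SE 0.26; adjusted p = 0.0863). Without SPRET/EiJ LDIR A the Acta2 difference was 3.46 (adjusted p = 0.00346) and that of Krt17 2.64 (adjusted p = 0.0279).

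Beyond the members, a wider list of 30 basal genes had 0 genes past the thresholds in sham mice by limma, against 8.89% of all probes. It had 1 gene with an adjusted p under 0.05, against 18.8% of all probes. Its median difference was -0.06, against -0.08 over all probes. A wider list of 24 smooth muscle genes had 1 gene higher in BALB/c, Des at 1.48 (SE 0.24), which encodes desmin, and 1 lower, the tropomyosin gene Tpm1 at -1.15 (SE 0.18). In this list 8 of 24 genes had an adjusted p under 0.05 by limma, against the same 18.8% of all probes. In irradiated mice the basal list had 1 gene past the thresholds, Cdh3 at 1.61 (SE 0.24), which encodes P-cadherin, and the smooth muscle list had 2, both lower in BALB/c: the potassium channel subunit Kcnmb1 at -3.04 (SE 0.50) and Synpo2 at -1.45 (SE 0.24). The 15 luminal genes had 0 past the thresholds in sham mice and a median difference of 1.5, and in irradiated mice 2 of the 15 were past the thresholds, both higher in BALB/c, with a median of 1.69. Of all probes 5.67% passed in irradiated mice. An adjusted p under 0.05 by limma was found there for 1 of 30 basal, 3 of 24 smooth muscle and 6 of 15 luminal genes, and for 0 of 15 luminal genes in sham mice. The share of all probes by that rule in irradiated mice is not given here. The part of the luminal cells in the keratin differences was not tested.

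**Figure D3:**
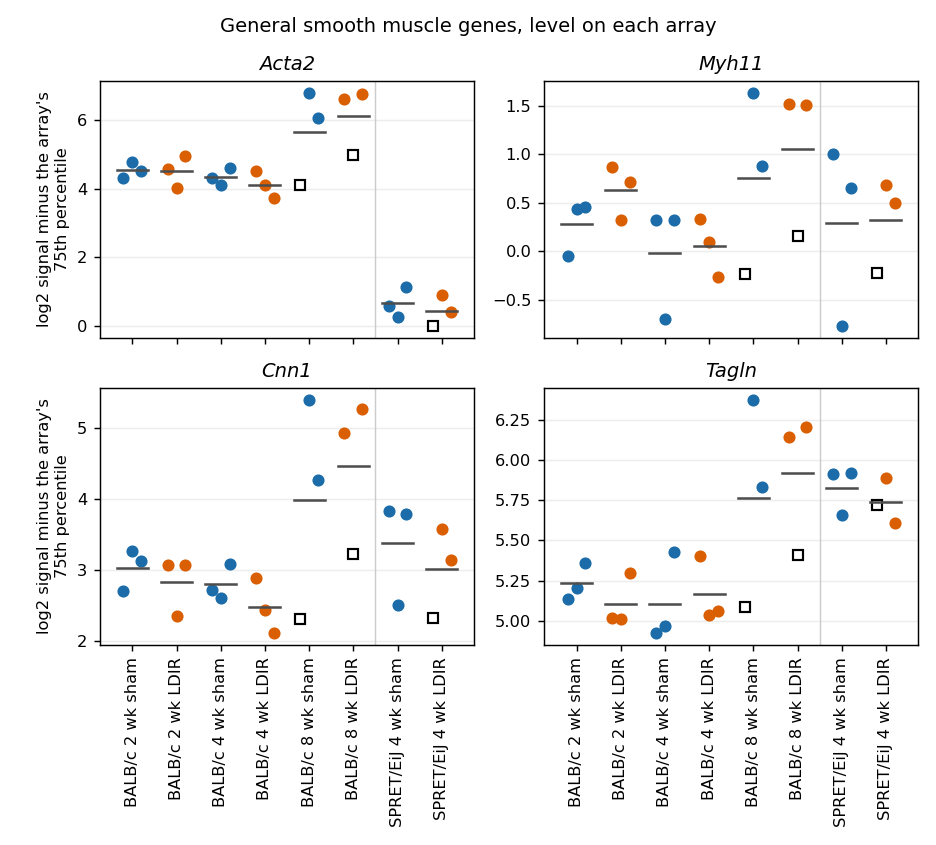
Level of the 4 general smooth muscle genes on each of the 24 arrays, by group, as log2 signal minus the array's 75th percentile (blue, sham; orange, LDIR; bar, group mean; open squares, the 3 arrays of high leukocyte level). Acta2 lies between 0.00 and 1.12 on the 6 SPRET/EiJ arrays and at 3.74 or higher on all 18 BALB/c arrays, while Tagln, Myh11 and Cnn1 show no such gap.

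The time comparison asked how the members differ between 8 and 4 weeks in BALB/c. The mice were exposed at the same age, so the later group was also older. In sham mice 8 of 10 members were higher at 8 weeks (56.1% of all probes were), with log2 differences between -0.30 and 2.53, but 0 of 10 passed the thresholds used for LDIR and time (p under 0.05 and more than 1.5-fold) with all 6 arrays, where 13.7% of all probes did. By unadjusted p under 0.05 the count was 0 of 10 as well, and the smallest adjusted p was 0.427 (limma). With 8-week sham A, the array of high leukocyte level, left out, 8 of 10 members passed, all of them higher at 8 weeks, against 7.03% of all probes higher and 19.5% in either direction, and 9 of 10 did not overlap, against 49.7%. That array was chosen by its leukocyte list, but after its low member levels had been seen.

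Krt5 went from 2.54, 2.70 and 3.13 at 4 weeks to 4.97 (B) and 4.78 (C) at 8 weeks in sham mice, with 1.95 on the array left out. The log2 difference without that array was 2.08 (SE 0.25; 4.24-fold; adjusted p = 0.0362). Krt15 went from -0.06, -1.04 and -0.66 to 3.47 and 3.28, with -0.92 on the array left out, and the log2 difference was 3.96 (SE 0.33; adjusted p = 0.0335). The log2 difference was 2.71 for Krt17 (SE 0.33; adjusted p = 0.0368) and 1.42 for Krt14 (SE 0.37; adjusted p = 0.111), and whether the keratins differed from each other in their change was not tested. Among the contractile genes the differences were 2.08 for Acta2 (SE 0.30; adjusted p = 0.0445), 2.02 for Cnn1 (SE 0.38; adjusted p = 0.0652), 1.28 for Myh11 (SE 0.43; adjusted p = 0.176) and 1.00 for Tagln (SE 0.27; adjusted p = 0.126). Hence 4 of 10 had an adjusted p under 0.05, against 2.27% of all probes.

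The irradiated mice gave the same comparison in animals that share no array with the sham mice. Here 7 of 10 members were past the thresholds with all 6 arrays and all 7 were higher at 8 weeks, against 4.11% of all probes higher and 20.9% in either direction. In 6 of 10 the groups did not overlap, against 31% of all probes, and 0 of 10 had an adjusted p under 0.05 by limma, against 0.3% (7 of 10 had an unadjusted p under 0.05). Their smallest adjusted p was 0.0685. Krt14 went from 0.41, -0.02 and 0.36 at 4 weeks to 2.59, 1.29 and 2.75 at 8 weeks, without overlap, and Krt5 from 2.58, 1.69 and 1.91 to 4.28, 2.83 and 5.09. The log2 differences were 1.96 for Krt14 (SE 0.41; adjusted p = 0.0814) and 2.01 for Krt5 (SE 0.58; adjusted p = 0.128). The leukocyte-high array B read above the 3 4-week LDIR arrays for both keratins, but below 4-week sham B and C for Krt14 (1.57 and 1.41) and below sham C for Krt5.

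Acta2 went from 4.52, 4.09 and 3.74 to 6.60, 4.98 and 6.76 in irradiated mice, a log2 difference of 2.00 (SE 0.51; adjusted p = 0.105). The other differences were 2.58 for Krt17 (SE 0.46; adjusted p = 0.0685), 1.99 for Cnn1 (SE 0.55; adjusted p = 0.119), 1.00 for Myh11 (SE 0.41; adjusted p = 0.209) and 0.75 for Tagln (SE 0.28; adjusted p = 0.178). Krt15 did not pass, at 1.66 (SE 0.80; adjusted p = 0.262). With 8-week LDIR B left out, 8 of 10 passed, all higher, against 5.24% of all probes higher and 19.7% in either direction, and 9 of 10 did not overlap, against 51.6%. The same 8 genes passed in sham and in irradiated mice: Krt5, Krt14, Krt15, Krt17, Acta2, Myh11, Cnn1 and Tagln. The adjusted p was then under 0.05 for 4 of the 10, against 1.43% of all probes, with Krt14 at 2.42 (SE 0.20; adjusted p = 0.0449) and Cnn1 at 2.61 (SE 0.28; adjusted p = 0.0449). The median probe shifted by -0.18 in sham and by -0.25 in irradiated mice without these arrays, so relative to the array's middle the rises of the 8 genes were larger by these amounts.

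Across all BALB/c arrays the 4 8-week arrays of ordinary leukocyte level lay above all 12 arrays of 2 and 4 weeks for those 8 genes. Those genes had passed as higher at 8 than 4 weeks on these same arrays, so this describes them and adds no test. The share of all probes that separate in this way was not counted. For Krt5 the 4 8-week arrays ran from 4.28 to 5.09, while the 12 earlier arrays ran from 1.5 to 3.13. For Acta2 they ran from 6.05 to 6.79, and the 12 earlier from 3.74 to 4.95. Oxtr overlapped (2.85 to 4.04 against 1.83 to 3.63). The brightest Trp63 probe ran the other way, from 2.57 to 2.89 at 8 weeks against 3.01 to 3.61 earlier, while the second Trp63 probe was higher at 8 weeks by 1.25 in sham (SE 0.38; adjusted p = 0.148) and by 1.30 in irradiated mice (SE 0.17; adjusted p = 0.0469) without the leukocyte-high arrays. The third Trp63 probe was lower at 8 weeks with all arrays, by -1.01 in sham (SE 0.30; adjusted p = 0.230) and by -1.12 in irradiated mice (SE 0.42; adjusted p = 0.184), past the thresholds in both, so the Trp63 probes gave no common direction. The second Krt5 probe was past the thresholds with all arrays in sham mice, at 2.45 (SE 0.92; adjusted p = 0.314), and without the leukocyte-high arrays it differed by 3.48 in sham (SE 0.43; adjusted p = 0.0372) and 3.69 in irradiated mice (SE 0.52; adjusted p = 0.0483).

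**Figure D4:**
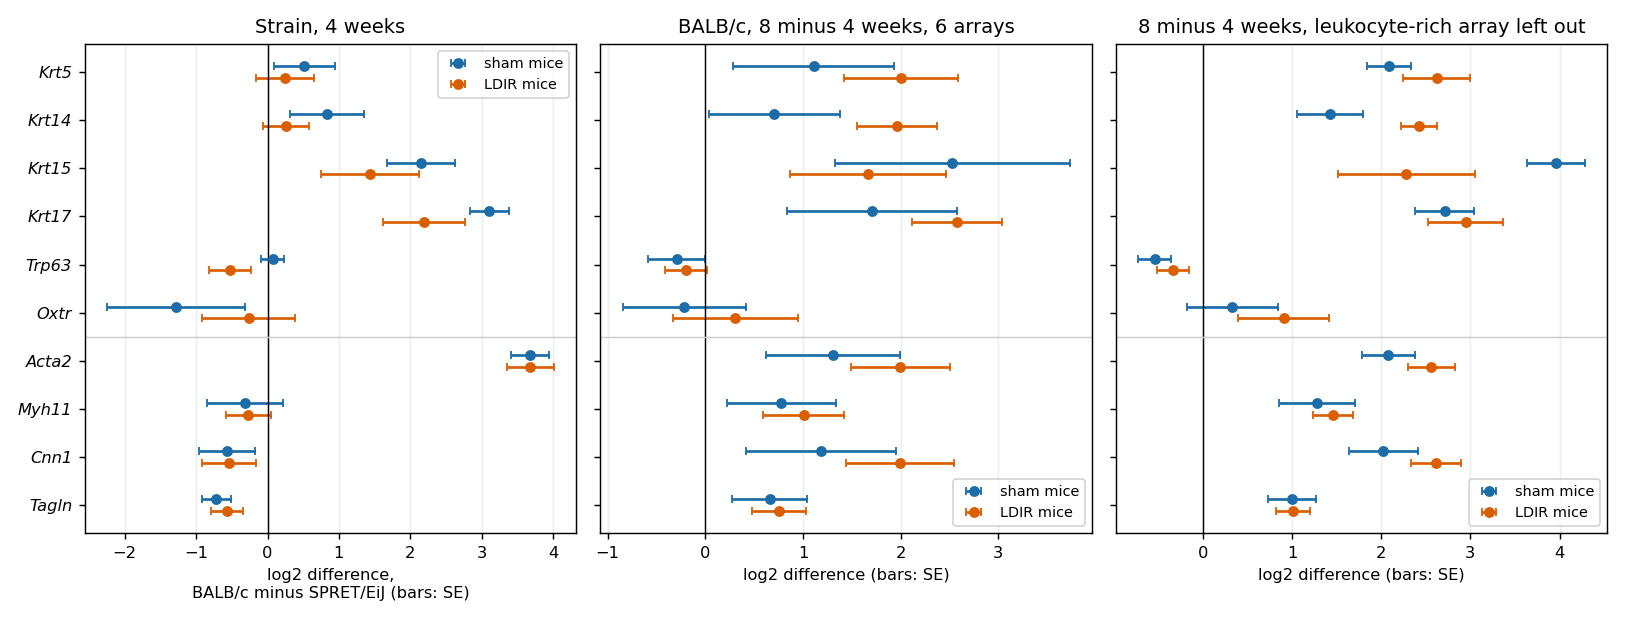
Log2 difference of each member with its SE (bars) from limma, for strain at 4 weeks (left), for 8 against 4 weeks in BALB/c with all 6 arrays (middle) and with the leukocyte-high array left out (right); blue, sham mice; orange, LDIR mice. In the left panel Acta2 stands at 3.68 in both sets of mice. In the right panel 8 of 10 members lie at or above 1.00 in both sets. The brightest Trp63 probe lies there at -0.54 and -0.34, while the second Trp63 probe, not drawn, gave 1.25 and 1.30.

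The wider lists were compared at 8 against 4 weeks in the same way. With all arrays, 2 of 30 basal genes were higher past the thresholds in sham mice and 0 lower, where 13.7% of all probes passed in either direction. The 2 were Wnt10a, a secreted Wnt ligand, at 2.67 (SE 0.55; adjusted p = 0.142) and Nrg1, the growth factor neuregulin, at 0.83 (SE 0.27; adjusted p = 0.263). In irradiated mice 9 were higher and 2 lower, where 4.11% of all probes were higher and 20.9% passed in either direction, led by the keratin gene Krt6a, which was lower at -2.28 (SE 0.76), by Wnt10a at 2.06 (SE 0.52) and by Lamb3 at 1.86 (SE 0.25; adjusted p = 0.0512), which encodes a laminin chain of the basement membrane. Without the leukocyte-high arrays 15 of 30 were higher in sham mice (7.03% of all probes) and 16 in irradiated mice (5.24%), and 12 of these were the same genes, among them the laminin genes Lama3 and Lamb3. The median difference of the list was then 0.83 in both, against -0.18 and -0.25 over all probes.

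Among 24 smooth muscle genes 7 were higher and 2 lower in sham mice with all arrays, again where 13.7% of all probes passed in either direction, led by Tpm2 at 1.68 (SE 0.36; adjusted p = 0.148), the myosin kinase gene Mylk at 1.32 (SE 0.40) and Tpm1 at 1.24 (SE 0.45). In irradiated mice 10 were higher and 0 lower, where 20.9% of all probes passed in either direction and 4.11% were higher, led by Des at 2.50 (SE 0.52), Tpm2 at 2.12 (SE 0.57) and Kcnmb1 at 2.07 (SE 0.60). Without the leukocyte-high arrays 11 of 24 were higher and 1 lower in sham mice, and 13 were higher and 0 lower in irradiated mice. Of all probes 7.03% were higher in sham and 5.24% in irradiated mice, and 19.5% and 19.7% passed in either direction. In both sets of mice 8 of the higher genes were the same, and the median differences of the list were 0.70 and 0.92. Des and Tpm2 are genes of skeletal muscle as well.

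Markers of other cells moved at the same time. With all arrays 13.7% of all probes passed the thresholds in either direction in sham mice and 20.9% in irradiated mice. In irradiated mice 4.11% of all probes were higher. The skeletal muscle list had 10 of 12 genes higher in sham mice at 8 weeks (median difference 4.06) and 5 of 12 in irradiated mice (median difference 4.62). Its mean level was 0.14 to 4.15 on the 4 8-week arrays of ordinary leukocyte level. It reached 3.37 on 2-week sham C and 2.68 on 2-week LDIR A too, and on those arrays Krt5 read 2.15 and 2.43 and Acta2 4.52 and 4.57, inside the range of the other 2- and 4-week arrays. The adipocyte list had 6 of 10 genes lower in sham mice and 2 of 10 in irradiated mice, the latter near the share of all probes in either direction. The luminal list had a median difference of 0.24 in sham and -0.03 in irradiated mice, against 0.07 and -0.21 over all probes, and of 0.62 and 0.35 without the leukocyte-high arrays. In that setting 4 of 15 luminal genes were higher in sham mice (7.03% of all probes) and 3 of 15 in irradiated mice (5.24%). Muc1 and Elf5 were higher in both. In each set 1 of 15 was lower, Esr1 at -0.97 (SE 0.24) in sham and Pgr at -1.38 (SE 0.44) in irradiated mice. Of all probes 19.5% in sham and 19.7% in irradiated mice passed in either direction there. With all arrays 0 of 15 were higher and 1 lower in sham mice, and 1 higher and 1 lower in irradiated mice. The epidermal list, which marks skin, had a median difference of 0.29 in sham and -0.14 in irradiated mice. The 8 endothelial genes, which mark vessels, had a median difference of 0.15 and 0.35. The part of these other cells in the members' rise was not tested.

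Slides were only partly crossed with time. On the second slide, which held the 3 8-week sham arrays and 4-week sham C, 8 of 10 members were higher at 8 weeks, with log2 differences of -0.40 to 2.60. The same slide held 8-week LDIR A and the 3 4-week LDIR arrays, and 9 of 10 members were higher on the former, with differences of -0.18 to 2.87. Each of these contrasts set 3 arrays against 1, and the share of all probes that were higher in them was not counted. With slide as a term, 0 of 10 members passed in sham mice and 5 of 10 in irradiated mice. The share of all probes passing in these fits is not given here. Without the slide term it was 13.7% in sham and 20.9% in irradiated mice. The second slide alone held both times in either set of mice.

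The sham glands were also compared between 2 and 4 weeks. None of the 10 members passed the thresholds by limma (0 of 10; 0 by unadjusted p under 0.05 as well), where 3.04% of all probes did, and log2 differences ran from -0.30 to 0.63. The smallest adjusted p of a member was 0.984. The second Krt5 probe was past them, at 1.07 (SE 0.37; adjusted p = 0.984), without overlap. In the wider basal list 1 of 30 genes passed, Id4, a regulator of basal differentiation, at 0.68 (SE 0.26; adjusted p = 0.984), and 0 of 24 smooth muscle genes did.

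The LDIR comparisons asked how far the glands of irradiated mice differ from sham at each time. At 4 weeks in BALB/c, Krt14 and Krt5 were lower in irradiated glands, and they were the 2 of 10 members past the thresholds, against 1.44% of all probes lower and 4.83% in either direction. Krt14 read 0.41, -0.02 and 0.36 after LDIR and 0.56, 1.57 and 1.41 after sham, so the groups did not overlap (1 of 10 members, against 12.6% of all probes), and the log2 difference was -0.93 (SE 0.30; 1.90-fold; adjusted p = 0.775, limma). Krt5 read 2.58, 1.69 and 1.91 after LDIR and 2.54, 2.70 and 3.13 after sham, with an overlap of 1 array, and the difference was -0.73 (SE 0.29; 1.66-fold; adjusted p = 0.775). Neither survived adjustment over all probes, and across the array the adjusted p was under 0.05 for 0 probes (limma; 3440 probes, 6.18%, had an unadjusted p under 0.05, as did 2 of 10 members).

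The 2 calls were sensitive to single arrays and to the test. Neither Krt14 nor Krt5 passed by the methods' t-test or in a fit of all 24 arrays, and both calls were lost without 4-week sham B, without 4-week sham C or without 4-week LDIR B. The other 8 members had differences of -0.78 to 0.07. The second Krt5 probe gave -0.67 (SE 0.52; adjusted p = 0.776), and the 3 brighter Trp63 probes gave -0.17, -0.31 and -0.65 in order of brightness. The fourth Trp63 probe was past the thresholds and lower after LDIR without overlap (adjusted p = 0.747, limma), but it was above background on 1 of the 3 LDIR arrays, against 3 of 3 sham arrays, so no exact size is given. On the second slide the 3 LDIR arrays met only 1 sham array, 4-week sham C, which is among the arrays both calls depended on. There all 10 members read lower after LDIR, by values from -1.16 for Krt14 to -0.03 for the brightest Trp63 probe. The share of all probes that were lower in this contrast was not counted. The epithelial members had a median difference of -0.55, the smooth muscle members -0.08 and all probes 0.02. In the wider basal list 2 of 30 genes were lower and 0 higher: Lgr5, a receptor found on basal stem cells, at -1.02 (SE 0.42) and Trim29 at -0.79 (SE 0.27). The 24 smooth muscle genes had 0 calls (limma). The luminal list had 0 of 15 past the thresholds and a median difference of 0.16.

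At the other times and in the other strain, LDIR and sham glands did not differ past the thresholds in these genes. At 2 weeks in BALB/c, 0 of 10 members passed against 3.05% of all probes, with differences of -0.44 to 0.35, and 8 of 10 were lower after LDIR (52.3% of all probes were). The second Krt5 probe read higher after LDIR, by 0.71 (SE 0.41; adjusted p = 0.869), against -0.28 for the first. The wider basal list had 2 of 30 lower, Wnt10a at -0.66 (SE 0.26) and Id4 at -0.61 (SE 0.25), and the smooth muscle list 0 of 24. At 8 weeks, 0 of 10 passed against 1.92%, with differences of -1.13 to 0.48 around a shift of -0.14 in the median of all probes, and 0 of 30 and 0 of 24 genes of the wider lists did. In SPRET/EiJ at 4 weeks, 0 of 10 passed against 2.21%, with differences of -1.39 for Oxtr to 0.45 for Krt15, and again 0 of 30 and 0 of 24 of the wider lists. Without the leukocyte-high SPRET/EiJ LDIR A the SPRET/EiJ differences ran from -0.80 for Oxtr to 0.34 for Krt15, Krt5 went from -0.46 to -0.077 and Krt17 from 0.14 to -0.32. By unadjusted p under 0.05 in limma, with all arrays, the count was 0 of 10 in each of these 3 comparisons. The SEs at 8 weeks, from 0.32 to 1.33, were too large to show a 1.5-fold change.

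At 8 weeks the comparison rested on the 2 leukocyte-high arrays, 1 in each group. Without them, 1 of 10 members passed against 4.35% of all probes. This was Krt15, which read 3.47 and 3.28 after sham and 0.73 and 2.13 after LDIR, a difference of -1.94 (SE 0.52; adjusted p = 0.968). Krt17 was lower after LDIR as well, by -0.54 (SE 0.23; adjusted p = 0.968), without overlap, so that 2 of 10 members did not overlap with 2 arrays a side, against 32.1% of all probes. The other 8 members lay between -0.19 and 0.26.

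The response to LDIR did not differ detectably between the strains. In the test of strain by LDIR at 4 weeks, 0 of 10 members passed against 3.59% of all probes, with interaction terms of -0.92 for Krt17 to 1.02 for Oxtr and a smallest adjusted p of 0.955 (limma; 0 of 10 by unadjusted p under 0.05). For Krt14 the LDIR difference was -0.93 in BALB/c and -0.35 in SPRET/EiJ, and the interaction was -0.57 (SE 0.64). Without SPRET/EiJ LDIR A the SPRET/EiJ difference of Krt14 was -0.057 and its interaction -0.87 (SE 0.65), and the interaction was -0.46 for Krt17 and 0.42 for Oxtr. With such SEs a difference between the strains as large as the BALB/c effect could not have been detected.

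The members varied together from mouse to mouse. Deviations of each array from its group mean were correlated between members over the 24 arrays, giving 45 pairs, with a permutation test that shuffled arrays within groups (the smallest p it can give is 1e-05) and Benjamini-Hochberg adjustment over the 45. By the brightest probes 30 of 45 pairs had an adjusted p under 0.05, of which 24 were positive and 6 negative, and all 6 negative pairs held the brightest Trp63 probe. With the second Trp63 probe in its place, 30 pairs passed and all 30 were positive. Without the 3 leukocyte-high arrays 15 of 45 pairs passed with the second Trp63 probe, and the median r fell from 0.76 to 0.54. Without the 6 8-week arrays 3 of 45 passed by the brightest probes. Pairs of other genes on the array were not tested, so these counts do not set the members apart from other genes.

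Within the remaining 21 arrays the keratins paired in 2 sets, a grouping read from these same values. Krt14 followed the second Trp63 probe at r = 0.93 (rho = 0.91; permutation p = 0.00208, adjusted p = 0.0155), and r was 0.85 without the 2 arrays farthest from the median of Krt14. Krt5 followed Krt14 at r = 0.83 (rho = 0.79; permutation p = 8.9e-04, adjusted p = 0.0134) and 0.70 without the 2 farthest arrays. Krt15 followed Krt17 at r = 0.76 (rho = 0.74; permutation p = 0.00535, adjusted p = 0.0268) and 0.64 without the 2 farthest. Between the sets the values were lower, with r = 0.22 for Krt14 and Krt15 (rho = 0.26; permutation p = 0.468, adjusted p = 0.619), although that pair was at 0.44 without the 2 farthest arrays. The values were 0.13 for Krt14 and Krt17, 0.44 for Krt5 and Krt15 and 0.40 for Krt5 and Krt17. On the second slide Krt5 was at 0.89 with Krt15 and 0.73 with Krt17, against 0.74 with Krt14, so Krt5 did not separate the sets there. Krt14 was at 0.61 with Krt15 and 0.21 with Krt17 on that slide. Whether r differs between pairs was not tested. Within the 3 slides r was 0.90, 0.90 and 0.95 for Krt14 and Trp63, 0.70, 0.74 and 0.96 for Krt5 and Krt14, and 0.93, 0.77 and 0.65 for Krt15 and Krt17.

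Of the 3 kinds of pairs, those of 2 contractile genes had the highest median r in the 21 arrays (0.78). It was 0.25 for pairs of 2 epithelial genes and 0.54 for mixed pairs, with the second Trp63 probe. Among the epithelial genes, Krt5, Krt14 and the second Trp63 probe were themselves joined by r of 0.80 to 0.93. In the 21 arrays the 6 pairs among Acta2, Myh11, Cnn1 and Tagln had r from 0.60 to 0.88, and 5 of the 6 passed. Acta2 followed Cnn1 at r = 0.88 (rho = 0.87; permutation p = 1.5e-04, adjusted p = 0.0054), at 0.86 without the 2 farthest arrays and at 0.92, 0.98 and 0.79 within the slides. Of 24 pairs of an epithelial and a contractile gene 6 passed, with a median r of 0.54, Krt5 and Cnn1 were at r = 0.75 (rho = 0.73; permutation p = 0.00758, adjusted p = 0.0313). Oxtr passed with no other member in these 21 arrays. Within the 3 slides its r was 0.99, 0.75 and 0.12 with the second Trp63 probe, and 0.85, 0.86 and -0.06 with Krt14. It was 0.62, 0.39 and 0.03 with Krt5, -0.18, 0.40 and -0.49 with Krt15 and -0.43, -0.18 and 0.27 with Krt17. The third slide held SPRET/EiJ sham A, where Oxtr read 6.47, and the part of that array in the low r was not tested.

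**Figure D5:**
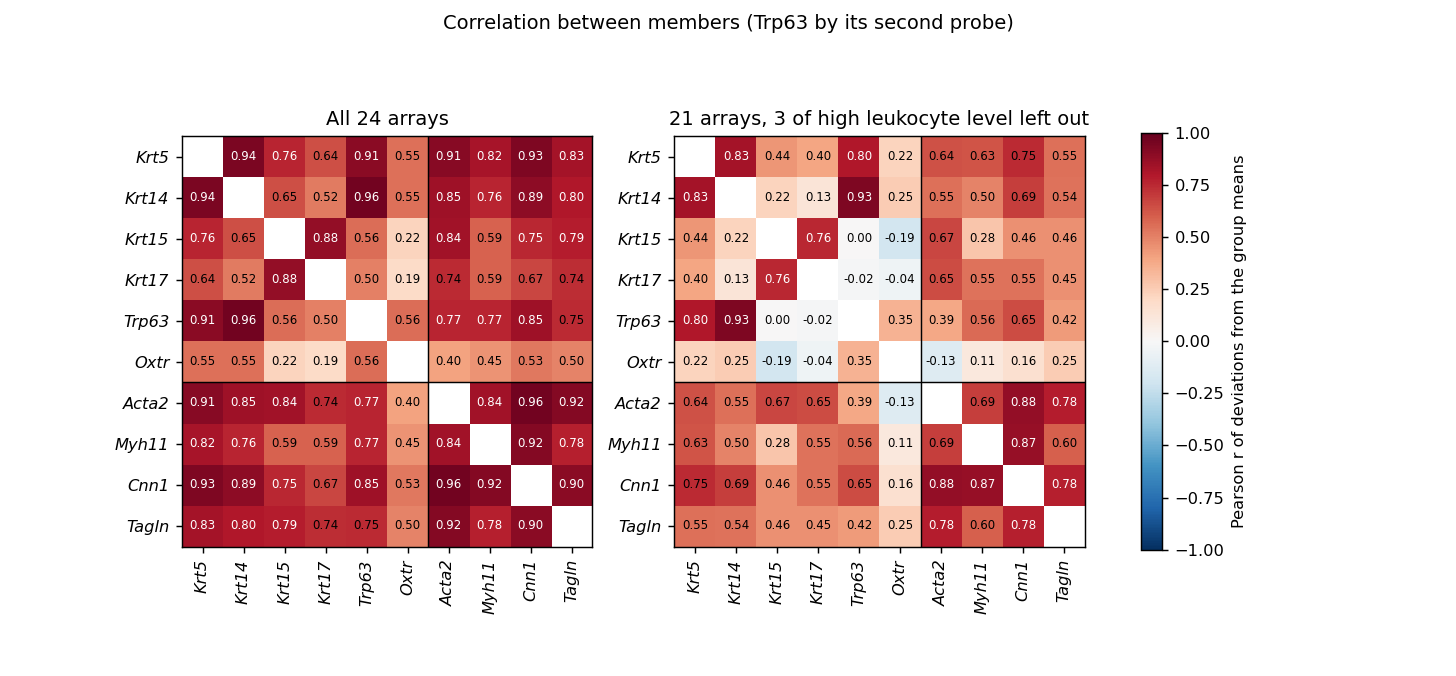
Pearson r of the deviations from group means for each pair of members, with Trp63 by its second probe, over all 24 arrays (left) and over 21 arrays without the 3 of high leukocyte level (right); lines separate the 6 epithelial from the 4 smooth muscle genes. On the right, Krt5, Krt14 and Trp63 are joined by r of 0.80 to 0.93 and Krt15 with Krt17 by 0.76, while Oxtr lies at 0.35 or lower with every member.

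The genes whose variation was most like that of Krt14 over the 24 arrays were ranked among 13631 named genes above background throughout. They were Trim29 (r = 0.96), Perp (0.95), Serpinb5 (0.94), Mpzl1 (0.94) and Krt5 (0.94). Those most like Myh11 were Clstn1 (r = 0.94), Prkg1 (0.93), Cnn1 (0.92), Igsf3 (0.90) and Mib1 (0.90). Over the 21 arrays without the leukocyte-high ones, Krt14 and Trim29 stayed at r = 0.92, while Krt5 ranked 102 for Krt14 with r = 0.83, and Myh11 and Cnn1 were at 0.87. These values were selected as the highest and carry no test.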

How the data were processed

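Total RNA of 24 mammary glands was hybridised to 1-colour Agilent mouse arrays and read with Feature Extraction 10.10.1.1. The authors deposited the scanner files, whose processed signal is an intensity already background-subtracted, and a table of log2 values that the authors had scaled to the 75th percentile in GeneSpring. Here log2 of the processed signal minus the 75th percentile of each array was used, after control spots and 3777 outlier spots were left out and spots of a probe were averaged. After centring, 99.812% of the authors' log2 values lay within 0.01 of these. Tests used limma 3.58.1 (R 4.3.3), fitted to the 6 arrays compared or, for the interaction, to 12, with Benjamini-Hochberg adjustment over all probes. The scripts were tested on simulated data. Thresholds followed the study's methods: p under 0.05 (strain, 0.001) and more than 1.5-fold. A gene was given by its brightest probe. All members were named with levels, members past a threshold or without overlap with their tests, and the 3 largest changes of each wider list; the other probes and further members were added after their values were seen. The members and lists were chosen with earlier results of these data known. The comparison of 8 with 4 weeks in irradiated mice and the settings without leukocyte-high arrays were chosen after seeing the data. P-values measure the spread between mice of a group.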

Additional observations from a re-analysis of the deposited data

How the results depend on the processing

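Alternatives covered the background correction, normalization, filters, test, slide, probe choice and single arrays, and the cause of a change was not tested. With all 24 arrays and slide as a term, the members past the thresholds fell from 2 to 0 for strain in sham mice, from 1 to 0 for strain in irradiated mice and from 2 to 0 for LDIR at 4 weeks. Normexp correction gave 2 members for strain in irradiated mice (Krt17 and Acta2) and 1 for sham 8 against 4 weeks (Krt15). For LDIR at 4 weeks quantile normalization and the mean over probes each left 1 (Krt14), and the methods' t-test and all 24 arrays in one fit left 0. All 24 arrays in one fit gave 4 for sham 8 against 4 weeks, and the mean over probes gave 1 (Krt5) for sham 4 against 2 weeks. Leaving out 1 array gave 2 to 3 members for strain in sham mice, 0 to 3 for LDIR at 4 weeks, 0 to 1 for LDIR at 8 weeks (Krt15, without 8-week sham A), 0 to 1 for LDIR in SPRET/EiJ (Oxtr, without sham C), 0 to 1 for sham 4 against 2 weeks (Krt14, without 4-week sham A), 0 to 8 for sham 8 against 4 weeks (8 without 8-week sham A), 0 to 2 for the interaction (Krt17 and Trp63, without SPRET/EiJ LDIR C) and 5 to 8 for irradiated mice at 8 against 4 weeks. Without the arrays of high leukocyte level, 8 members passed for sham 8 against 4 weeks and 1 for LDIR at 8 weeks, and 13 pairs passed (15 with the second Trp63 probe) against 30. Without the 8-week arrays 3 pairs passed.

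The letters A, B and C did not pair the samples: in no comparison did all 3 same-letter pairs of arrays have deviations correlated above 0.1, and at 8 weeks r was -0.35, -0.36 and 0.27. With the replicate letter as a block, 2 members passed for strain in irradiated mice (Krt17 and Acta2) and 1 for LDIR at 4 weeks (Krt14), and the other counts moved by less than 1.5 times.

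Among the single differences recomputed under the alternatives, directions turned for Trp63, Myh11 and Oxtr. Trp63 in the sham strain comparison was -0.084 with slide as a term over 24 arrays. In the irradiated strain comparison it was 0.46 by the mean over its probes and 0.88 by its second probe. For 8 against 4 weeks it was 0.41 in sham mice by the second probe, and in irradiated mice 0.15 by the mean over probes and 0.87 by the second probe. Myh11 in the sham strain comparison ran from -0.85 to 0.040 with 1 array left out, above 0 without 4-week BALB/c sham B (0.025) or SPRET/EiJ sham A. Oxtr in sham mice at 8 against 4 weeks ran from -0.79 to 0.33 with 1 array left out, above 0 without 4-week sham B (0.040) or 8-week sham A, and in irradiated mice from -0.15 to 0.91, below 0 without 4-week LDIR B or 8-week LDIR C (-0.048). Without the arrays of high leukocyte level, differences short of the thresholds turned for strain in irradiated mice (Krt5 from 0.24 to -0.14, Krt14 from 0.26 to -0.037), LDIR at 8 weeks (Krt5 from 0.17 to -0.19, Krt17 from 0.090 to -0.54, Trp63 from -0.068 to 0.033), LDIR in SPRET/EiJ (Krt17 from 0.14 to -0.32) and the interaction (Acta2 from 0.0031 to -0.21, Myh11 from 0.047 to -0.23, Cnn1 from 0.031 to -0.31).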
